A study of Mus musculus with 10 samples.

Results

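The proteasome genes described here are the 48 protein-coding genes whose symbol starts with Psma, Psmb, Psmc, Psmd, Psme, Psmf or Psmg and a number, out of 55487 genes in the deposited TPM table. TPM scales a gene's reads by its length and by the library total. The immune catalytic genes Psmb8 and Psmb9 and 5 pseudogenes with such names were left out. The 48 genes comprised 14 of the 20S core, 17 of the 19S cap, 5 activators, 7 assembly chaperones and 5 others. The others were the testis form Psma8, the immune and thymic forms Psmb10 and Psmb11, the regulator Psmf1, and Psmc3ip, a meiotic recombination gene that matched by its name and encodes no subunit.

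The proteasome degrades proteins that carry ubiquitin chains. Its barrel-shaped core particle is built of stacked rings, alpha rings that gate the entry and beta rings that hold the proteolytic sites. A cap binds, deubiquitinates, unfolds and feeds substrates into the barrel, and alternative activators can dock in its place. In neurons the proteasome acts in axons and synapses as well as in the cell body, and NFE2L1 is known to raise transcription of its genes when proteasome activity falls.

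The study measured RNA of the cerebral cortex of mice at postnatal day 18 in 5 Usp7 cKO; Trp53+/- and 5 Usp7 WT; Trp53+/- animals, and asked what loss of Usp7, which encodes a deubiquitinase, changes. Usp7 fl/fl mice were bred with NEX-cre mice, in which Cre acts in glutamatergic neurons, so the deletion is limited to those neurons per the labels, while the RNA is from whole cortical tissue. All animals of both groups were heterozygous for Trp53, and the labels used here do not say whether Usp7 WT animals carried Cre. Each library is called by its genotype and a replicate number, which is only a name. Usp7 itself lay between 48.3 and 61.9 TPM in Usp7 WT and between 31.6 and 40.9 TPM in Usp7 cKO.

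The libraries held 42628526 to 51797145 counts in exon bins. Small and structural RNAs took between 15.1 and 25.2% of TPM, with overlapping groups. For this reason each gene was also given as rescaled TPM, divided by a size factor per library (0.922 to 1.13) taken from 28141 genes above 0 in every library. Sex-linked transcripts went against the labelled sex in Usp7 WT replicate 2 and Usp7 cKO replicate 1, and calls were also made without both libraries. By these transcripts, Usp7 WT replicates 1 and 5 and Usp7 cKO replicates 1, 2, 3 and 5 were female and the others male. Sex by transcripts was therefore not balanced between the genotypes, while the fits used labelled sex. The labels describe sex- and litter-matched pairs and name none of them, so litter is in no fit. Library identifiers in the header of the bin table follow genotype, so genotype and an order of preparation cannot be told apart. Marker sums differed for glutamatergic neurons, whose 6 markers summed to 3109 to 3463 TPM across Usp7 WT and 2240 to 2716 TPM across Usp7 cKO with 5 of 6 lower. They also differed for microglia, whose 6 markers summed to 193.9 to 231 TPM and 132 to 154 TPM with 5 of 6 lower. Those of oligodendrocyte precursors lay apart in the other direction, at 286 to 337 TPM and 340.2 to 386 TPM, with 1 of 4 called higher. No marker of the 8 cell types listed was under 0.5 TPM in every library. In bulk tissue fewer cells of a type and less RNA per cell cannot be told apart.

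The 31 genes of the 20S core and the 19S cap were all well transcribed in Usp7 WT cortex, at group means from 33.2 TPM for Psmc6 to 190.0 TPM for Psmc5, both ATPases of the cap. Psmd2, a large scaffold of the cap base, followed Psmc5 at 181 ± 10.7 TPM (SD, n = 5), and the spreads of both overlapped. Psmb5, which carries the chymotrypsin-like site, was the most abundant core gene at 132 ± 10.8 TPM, and Psma2 the least at 34.1 ± 3.89 TPM. Activators ran from 2.55 TPM for Psme2b to 89.1 TPM for Psme3. Assembly chaperones ran from 3.38 TPM for Psmg3 to 26.5 TPM for Psmg4. Psma8 at 0.234 ± 0.0985 TPM and Psmb11 at 0.147 ± 0.0428 TPM were under the minimum mean of 0.5 TPM and were not tested, which left 46 genes. These levels are on the TPM scale, and no source used here gives the gene lengths behind them.

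With TPM as deposited, 6 of the 46 tested genes were higher in Usp7 cKO and 0 were lower. They were the activator gene Psme1, the beta ring genes Psmb2, Psmb3 and Psmb6, the lid gene Psmd6 and the regulator Psmf1. A change is the Usp7 cKO value less the Usp7 WT value on the log2(TPM + 0.5) scale, fitted with limma over all genes with labelled sex as a covariate, and called at a Benjamini-Hochberg adjusted p below 0.05. Of the 27580 genes tested, 9.22% were called higher and 4.67% lower, so the 6 genes called higher are near what that background gives. At an unadjusted p below 0.05 the fit held 15 of the 46 genes or 32.6%, beside 28.1% of all genes tested. The median change of the 46 genes was 0.10, beside 0.06 over all genes tested, and 38 of 46 changes (82.6%) were above 0, beside 59.5% of all genes. In 7 of the 46 genes every Usp7 cKO library lay above every Usp7 WT library, and in 0 below, beside 8.19% and 4.58% of all genes tested. With the sex-linked transcript Xist as covariate in place of labelled sex, Psmb6 and Psme1 alone were called higher. Calls over all genes, in either direction, were 3016 of 27580 in that fit and 3832 of 27580 with labelled sex.

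Fewer genes were called higher and more were called lower after rescaling by size factors. With rescaled TPM, Psme1 and Psmf1 were called higher, and Psmb10, Psme3 and Psme4 were called lower. The background was 9.6% higher and 10.9% lower of 27535 genes. The median over all genes fell from 0.06 to 0.01 and that of the 46 genes from 0.10 to 0.04. All Usp7 cKO libraries lay above all Usp7 WT libraries in 3 genes, Psme1, Psmf1 and Psmb3, and below in 0, beside 7.62% and 8.38% of all genes. On summed bin counts edgeR called 6 of 47 genes higher and 4 lower, beside 14% higher and 13.9% lower of all genes. The 4 lower genes were Psmb10, Psme3, Psme4 and the cap ATPase gene Psmc3. With TPM rescaled to coding genes instead, limma called 13 of 46 genes higher and 0 lower, beside 5599 of 29629 genes in either direction. That scaling moved the median over all genes up to 0.09, and the 5599 genes were not split by direction. There Psmb10, Psme3 and Psme4 were not called (limma adjusted p = 0.0570, 0.178 and 0.133).

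**Figure D1:**
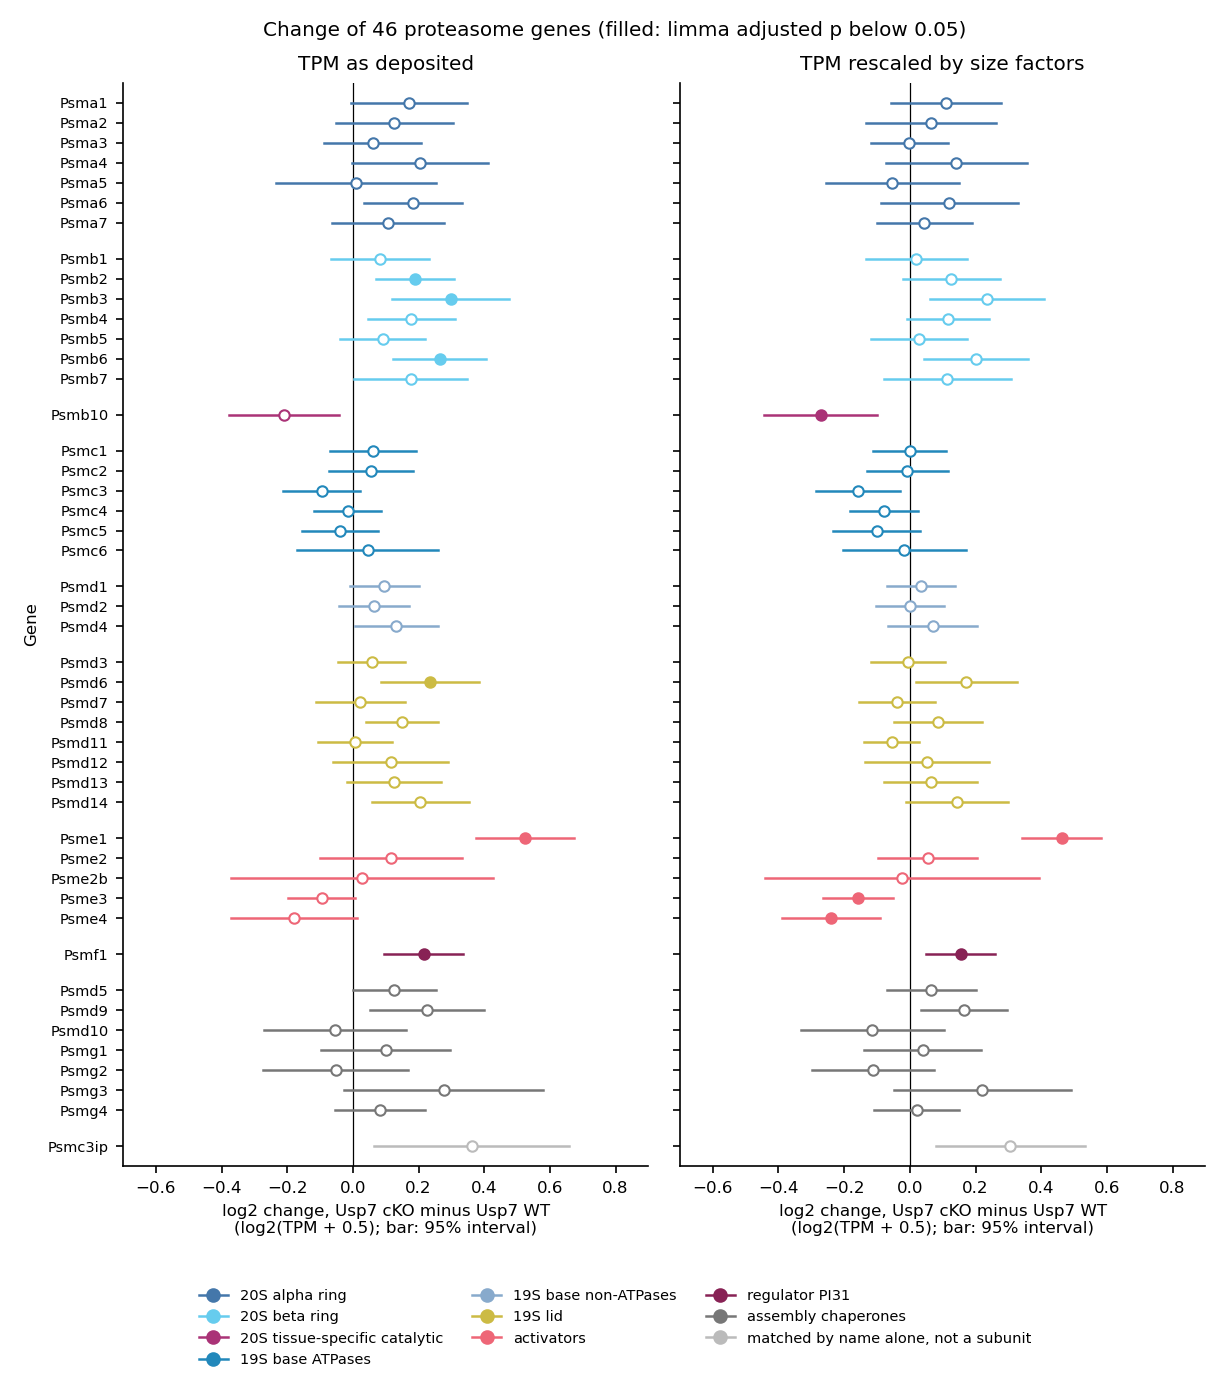
Log2 change of each of the 46 tested genes, Usp7 cKO minus Usp7 WT, with its 95% interval, grouped by role, for TPM as deposited (left) and rescaled TPM (right). Filled points passed an adjusted p below 0.05, which 6 genes did on the left and 5 on the right, and Psme1 has the highest change on both sides (0.52 and 0.46).

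The 14 core genes all had changes above 0 with TPM as deposited, from 0.01 for Psma5 to 0.30 for Psmb3, with a median of 0.17. Only 3 of the 14 were called, and all 3 belong to the beta ring. In the alpha ring 0 of 7 genes were called, 1 of them at an unadjusted p below 0.05, and the median was 0.13. In the beta ring the median was 0.18. All Usp7 cKO libraries lay above all Usp7 WT libraries in 4 of 7 genes, beside 8.19% of all genes tested. With rescaled TPM, 0 of the 14 core genes were called by limma, 2 of them at an unadjusted p below 0.05 (Psmb3 and Psmb6). Of the 14, 12 were above 0, and the median was 0.11. Rescaled, the groups lay apart in 1 of the 7 beta ring genes, Psmb3, beside 7.62% of all genes.

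Psmb3, a structural subunit of the beta ring, measured 51.4, 48.1, 52.9, 38.2 and 46.8 TPM in the Usp7 WT libraries and 57.6, 56.5, 62.1, 56.9 and 57.6 TPM in the Usp7 cKO libraries. No library of one genotype overlapped the other (log2 change 0.30, SE 0.0801, limma adjusted p = 0.0339). It kept this separation on the rescaled values, where its change was 0.24 and missed the threshold (adjusted p = 0.0590).

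Psmb6, the caspase-like catalytic subunit, measured 97.7, 98.3, 104, 82.2 and 90.9 TPM in the Usp7 WT libraries and 109.8, 109.7, 118, 109 and 121 TPM in the Usp7 cKO libraries. The groups did not overlap (log2 change 0.26, SE 0.0632, limma adjusted p = 0.0202), and the gene stayed past the threshold under 19 of 22 alternatives, with adjusted p from 0.00415 to 0.0788. With rescaled TPM the change was 0.20 and the groups overlapped (adjusted p = 0.0743). It missed the threshold in all 10 rescaled fits with 1 library left out (limma adjusted p from 0.0545 to 0.160). All 13 of its tested exon bins were higher in Usp7 cKO by mean scaled counts, 4 of them without overlap. Genes that were not called could show this too, as all 18 bins of Psma1 were higher, with 0 free of overlap.

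Psmb2, another structural subunit, measured 96.9, 99.4, 98.4, 81.7 and 95.6 TPM in the Usp7 WT libraries and 104, 113, 111, 105 and 104 TPM in the Usp7 cKO libraries. Usp7 WT replicate 4 was the lowest library, and the highest Usp7 WT library lay below the lowest Usp7 cKO library (log2 change 0.19, SE 0.0536, limma adjusted p = 0.0422). It was called under 7 of 22 alternatives.

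The other 2 catalytic genes were not called. Psmb5, with the chymotrypsin-like site, measured 134, 141, 139, 114 and 132 TPM in the Usp7 WT libraries and 137, 139, 149, 141 and 136 TPM in the Usp7 cKO libraries. Its groups overlapped, and the interval of its change was -0.04 to 0.22 (log2, 95%). Psmb7, with the trypsin-like site, had no overlap between the groups, from 36.2 ± 4.04 TPM in Usp7 WT to 40.8 ± 1.24 TPM in Usp7 cKO (SD, n = 5), and missed the threshold after adjustment (log2 change 0.18, SE 0.0777, limma adjusted p = 0.170).

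The stretch of 120 bases before the RefSeq start of Psmb6 is printed because Psmb6 was called and its stretch ends on the core letters of an antioxidant response element, the kind of site that NFE2L1 binds with small MAF proteins. It lies at chr11:70525237-70525356 on the plus strand (GRCm38.p6, RefSeq) and overlaps no exon of the GENCODE annotation. Capitals mark the match to TGACNNNGC, with N any base. Such a match was about as frequent in the proteasome genes with a promoter window (15%) as in all genes (13.99%).
Psmb6: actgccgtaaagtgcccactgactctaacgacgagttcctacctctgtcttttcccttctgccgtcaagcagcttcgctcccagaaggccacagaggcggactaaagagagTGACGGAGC

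The 17 cap genes had a smaller median change than the core genes on both scales. The core median less the cap median was 0.11 with TPM as deposited, and 0.07 without Usp7 WT replicate 4 or without Usp7 WT replicate 5, where the cap median was 0.02 and 0.10. With all libraries their median change was 0.06 with TPM as deposited, equal to that of all genes, and -0.00 rescaled. With TPM as deposited 14 of 17 were above 0 and 1, Psmd6, was called. Within the cap the ATPases and the lid had different medians. The 6 ATPase genes Psmc1 to Psmc6, which unfold substrates, had changes from -0.10 to 0.06 with 0 called by limma, 0 at an unadjusted p below 0.05 and a median of 0.01. The 8 lid genes had changes from 0.01 to 0.23 and a median of 0.12. The 3 other base genes Psmd1, Psmd2 and Psmd4 lay at 0.10, 0.06 and 0.13. Rescaled, all 6 ATPase genes were at or below 0 (Psmc1 at -0.00) and 5 of 8 lid genes above 0.

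Psmd6, a lid subunit, measured 43.5, 43.3, 46.0, 38.2 and 47.6 TPM in the Usp7 WT libraries and 44.8, 54.5, 52.6, 53.4 and 52.1 TPM in the Usp7 cKO libraries. It passed the threshold (log2 change 0.23, SE 0.0671, limma adjusted p = 0.0437) although Usp7 cKO replicate 1 lay within the range of Usp7 WT. It was called under 10 of 22 alternatives, in 3 of the 10 fits with 1 library left out, and not on rescaled TPM (adjusted p = 0.112). Psmd14, the deubiquitinase of the lid, measured 48.4, 48.7, 55.9, 42.8 and 46.1 TPM in the Usp7 WT libraries and 56.5, 55.2, 56.2, 54.8 and 55.6 TPM in the Usp7 cKO libraries. Its Usp7 cKO libraries lay within 54.8 to 56.5 TPM, overlapped only by Usp7 WT replicate 3, and it was not called (log2 change 0.21, SE 0.0661, limma adjusted p = 0.0666). Psmd4, a ubiquitin receptor of the base, measured 93.4, 91.6, 96.0, 77.4 and 89.2 TPM in the Usp7 WT libraries and 94.3, 96.4, 104, 95.3 and 100.2 TPM in the Usp7 cKO libraries, with overlapping groups (log2 change 0.13, SE 0.0569, limma adjusted p = 0.160). Psmd1, a scaffold of the base, had no overlap between the groups and was not called (log2 change 0.10, SE 0.0466, limma adjusted p = 0.210).

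A ratio within a library does not depend on how the library is scaled. The summed TPM of the 14 core genes over that of the 17 cap genes was 0.674, 0.678, 0.677, 0.628 and 0.645 in the Usp7 WT libraries and 0.695, 0.702, 0.717, 0.719 and 0.724 in the Usp7 cKO libraries. Every Usp7 cKO library lay above every Usp7 WT library, with means of 0.660 ± 0.0226 and 0.711 ± 0.0125 (SD, n = 5). The separation was also there with each of the 31 genes left out in turn and on summed bin counts (0.404 to 0.446 against 0.447 to 0.474). With geometric means, which weigh every gene alike, the groups overlapped slightly, 0.885 in Usp7 WT replicate 3 against 0.884 in Usp7 cKO replicate 2. The genes of these sums were chosen with earlier results known, so no p is given for them.

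The sums were also compared by ring and subcomplex. Beta ring over cap was 0.377 to 0.403 over the Usp7 WT libraries and 0.425 to 0.433 over the Usp7 cKO libraries. Alpha ring over cap was 0.251 to 0.285 against 0.270 to 0.293, with overlap. Inside the cap, lid over ATPases was 0.738, 0.746, 0.747, 0.741 and 0.731 in the Usp7 WT libraries and 0.768, 0.829, 0.832, 0.809 and 0.805 in the Usp7 cKO libraries. The Usp7 WT libraries were close together, the groups did not overlap, and this was so with each of the 14 genes left out in turn. Core over ATPases had no overlap either (1.41 to 1.52 against 1.59 to 1.69), and core over lid overlapped (1.90 to 2.03 against 1.98 to 2.09).

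**Figure D2:**
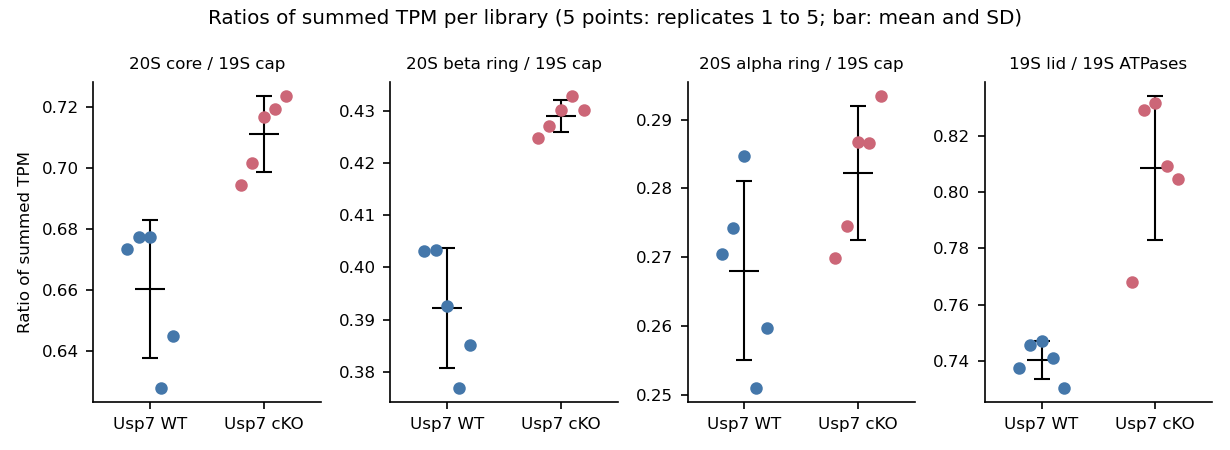
Ratio of summed TPM per library in Usp7 WT (blue) and Usp7 cKO (red), 1 point per library with the group mean and SD, on axes that do not start at 0. Core over cap, beta ring over cap and lid over ATPases have no overlap between the groups, while alpha ring over cap overlaps.

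The sums themselves depend on the scaling. The beta ring summed to 478 to 595 TPM over the Usp7 WT libraries and 617 to 652 TPM over the Usp7 cKO libraries with no overlap, and rescaled it overlapped (517 to 616 against 577 to 649). The ATPase sums overlapped on both scales. Usp7 WT replicate 4 held the lowest TPM of all 10 libraries for 13 of 14 core genes, 15 of 17 cap genes and 33 of 46 tested genes. With rescaled TPM it was lowest for 6 and Usp7 WT replicate 5 for 7 of the 14 core genes. Without Usp7 WT replicate 4 the core median change was 0.09 and the cap median 0.02, with Psmb3, Psmb6, Psme1 and Psmf1 called higher and Psmb10 lower. Over all genes that fit had a median of 0.05 and called 3389 of 27659 in either direction, beside 3832 of 27580 with all libraries. Without both libraries of discordant sex, Psme1 alone was called on TPM as deposited, and the core and cap medians were 0.17 and 0.05. Over all genes the median there was 0.02, and 2183 of 27667 were called in either direction. On rescaled TPM without both libraries, Psme1 and Psmf1 were called higher and 0 genes lower, beside 3624 of 27574 genes in either direction.

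**Figure D3:**
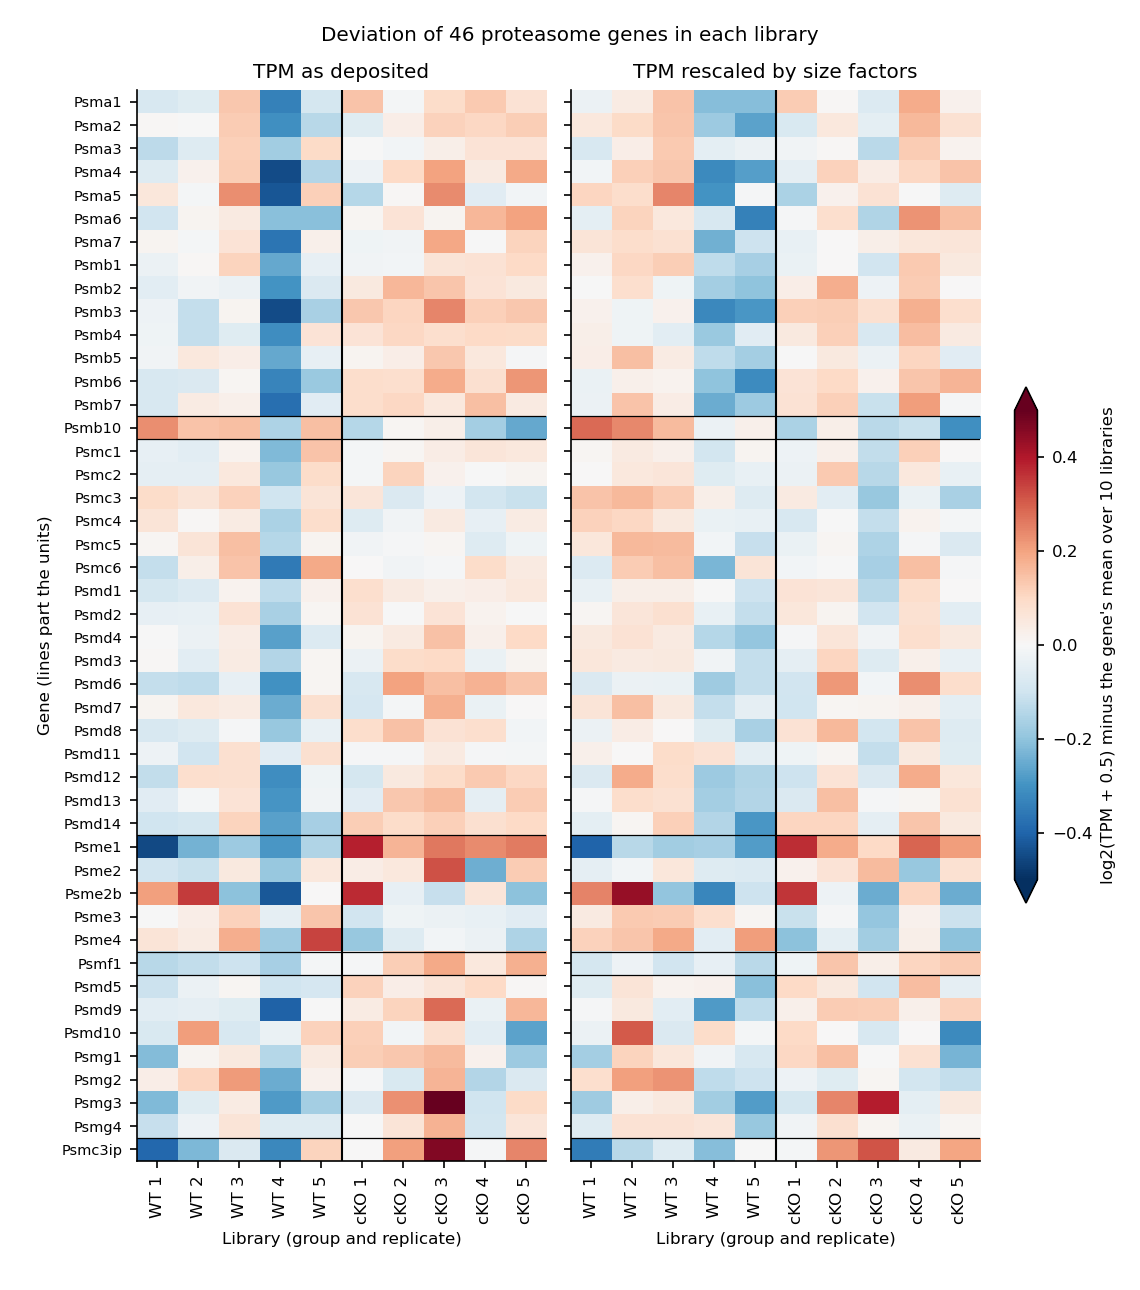
Deviation of log2(TPM + 0.5) from each gene's mean over the 10 libraries (colour, capped at 0.5 in either direction) for the 46 tested genes (rows) in each library (columns), with TPM as deposited (left) and rescaled (right). Usp7 WT replicate 4 is the lowest library for 33 of the 46 genes on the left and for 14 on the right. On the right Usp7 WT replicate 5 is the lowest for 16 genes. Psme1 is above its mean in all Usp7 cKO libraries.

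The core genes are shorter than the cap genes, with median exonic lengths of 2335 and 2820 bases, and the median change of coding genes of at least 20 TPM differed with length (TPM as deposited). It was 0.04 below 1000 exonic bases, 0.05 at 1000 to 2000, 0.02 at 2000 to 4000, -0.01 at 4000 to 8000 and -0.03 at 8000 or more, so it declined from 1000 bases on and not below. In the length and TPM ranges of the core genes 1571 coding genes had a median of 0.03, and in those of the cap genes 2704 had 0.00, beside 0.17 and 0.06 for the core and the cap. The part of length in the core and cap values was not tested further.

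Short runs of promoter letters were counted in the 300 bases around the start (250 before, 50 after). This was done for the 40 of 48 genes with a window in the RefSeq table (GRCm38.p6), of which some have more than 1 start. The ETS site CCGGAAGT, read on both strands, was in 9 of 40 genes or 22.5%, beside 4.31% of all 27025 genes and 8.66% of coding genes that average 20 TPM or more. It was in 5 of 14 cap genes and 1 of 11 core genes with a window. TGACNNNGC was in 6 of 40 genes or 15%, beside 13.99% and 16.7%, and the CCAAT box in 14 of 40 or 35%, beside 41.1% and 42.3%. In these windows 0 matches to one motif overlapped a match to another. A match describes letters only, and no test was made. The sites below are the ETS matches in the cap and activator genes, shown since that letter run was the most frequent over background, in the direction of the motif, with up to 8 flanking bases and the match in capitals. They lie between base -85 and base 8 of a start (base 0), with Psmc2 listed 2 times for its 2 starts, in the order listed at chr12:100110165-100110188, chr5:21785182-21785205, chr5:21786714-21786737, chr14:14120975-14120998, chr11:107479502-107479525, chr7:140882380-140882403, chr11:101316206-101316229 and chr11:30771714-30771737.
Psmc1: cgccaccgCCGGAAGTgcatccac
Psmc2: gccccatcCCGGAAGTgctcactg
Psmc2: cttccccaCCGGAAGTagctccgc
Psmd6: agacgcgaCCGGAAGTcagactgg
Psmd12: cactcgcaCCGGAAGTcgcccgct
Psmd13: ccgcggtgCCGGAAGTgagcgagc
Psme3: cgctcacgCCGGAAGTtgcgtcac
Psme4: gccccgccCCGGAAGTgacttgag

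The matches to TGACNNNGC, bound in its full form by NFE2L1, stood in 2 core genes, 2 cap genes, 1 activator and 1 chaperone gene. Those nearest to a start, other than that of Psmb6 above, were at chr14:54618026-54618050, chr5:123228151-123228175 and chr11:30771760-30771784. Of these genes Psmb6 was called higher by limma with TPM as deposited and Psme4 lower on rescaled TPM. Psmb5 and Psmd9 were not called by limma on either of these scales, and edgeR and DESeq2 on bin counts called Psmd9 higher.
Psmb5: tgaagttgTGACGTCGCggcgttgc
Psmd9: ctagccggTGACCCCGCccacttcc
Psme4: tcttctggTGACGCTGCagccgcag

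Among the activators Psme1 rose and its partner Psme2 was not called. Psme1 and Psme2 encode the alpha and beta subunits of PA28, a ring that opens the core without ATP and is known to be induced by interferon. Psme1 (chr14:55578123-55581529, plus strand, GRCm38) measured 19.5, 22.7, 23.6, 21.8 and 24.1 TPM in the Usp7 WT libraries and 35.2, 30.2, 32.2, 31.6 and 32.2 TPM in the Usp7 cKO libraries. The lowest Usp7 cKO library stood above the highest Usp7 WT library, with group means going from 22.3 ± 1.81 TPM in Usp7 WT to 32.3 ± 1.83 TPM in Usp7 cKO (SD, n = 5). This change was called (log2 change 0.52, SE 0.0674, limma adjusted p = 0.000728). The rescaled change was 0.46 (adjusted p = 0.000395), and Psme1 passed the threshold under all 22 alternatives, with adjusted p from 6.08e-14 to 0.00922 and changes from 0.46 to 0.56.

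Psme2, which lies close by on the minus strand (chr14:55587441-55591113), measured 10.8, 10.6, 11.9, 10.1 and 12.0 TPM in the Usp7 WT libraries and 11.8, 12.0, 14.5, 9.65 and 12.6 TPM in the Usp7 cKO libraries. The groups overlapped (log2 change 0.12, SE 0.0974, limma adjusted p = 0.486), and the interval of the change was -0.10 to 0.33. The ratio of Psme1 to Psme2 per library was 1.81 to 2.17 over the Usp7 WT libraries and 2.22 to 3.28 over the Usp7 cKO libraries. All 5 Usp7 cKO libraries exceeded the highest Usp7 WT library, and no p is given since both genes were chosen with earlier results known. Psme2b, a near copy of Psme2 whose reads the authors' counting may split, was at 2.55 ± 0.643 TPM in Usp7 WT against 2.58 ± 0.503 TPM in Usp7 cKO (SD, n = 5).

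The rise of Psme1 ran along the whole gene. Of its 37 tested exon bins, 37 had more scaled counts in Usp7 cKO, with log2 changes from 0.12 to 0.86 and a median of 0.52, and 22 had no overlap between the groups. No change in exon usage was called for it (edgeR Simes adjusted p = 1). Psme1 overlaps Emc9 on the other strand by 14 bases, and Emc9 was not called.

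Psme3 and Psme4 had changes below 0 on both scales. Psme3 encodes the nuclear PA28 gamma ring and measured 85.9, 88.1, 93.4, 83.4 and 94.7 TPM in the Usp7 WT libraries and 80.6, 84.8, 84.2, 83.9 and 82.8 TPM in the Usp7 cKO libraries. The groups overlapped, and the call rested on the scaling (log2 change -0.10, SE 0.0459, limma adjusted p = 0.207 with TPM as deposited, and log2 -0.16, adjusted p = 0.0410 rescaled). Psme4 encodes PA200, a nuclear activator linked to degradation of acetylated histones, and measured 33.6, 33.0, 36.4, 28.3 and 40.6 TPM in the Usp7 WT libraries and 28.1, 30.6, 31.8, 31.4 and 28.8 TPM in the Usp7 cKO libraries. Its change was -0.18 as deposited (adjusted p = 0.208) and -0.24 rescaled (SE 0.0667, adjusted p = 0.0309). Each of both was called by rescaled TPM, edgeR and DESeq2, 3 of 22 alternatives, and by none of the 10 fits on TPM as deposited with 1 library left out. The rescaled call of each was lost in 7 of 10 fits with 1 library left out, and without both libraries of discordant sex the adjusted p was 0.203 for Psme3 and 0.141 for Psme4. Glutamatergic marker sums were lower in the same libraries, and their part in these values was not tested.

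The 120 bases before the start of Psme3 are printed as those of the activator called lower on rescaled TPM whose stretch overlaps no annotated exon. They lie at chr11:101316093-101316212 on the plus strand (GRCm38.p6, RefSeq), and capitals mark a CCAAT box read on the minus strand.
Psme3: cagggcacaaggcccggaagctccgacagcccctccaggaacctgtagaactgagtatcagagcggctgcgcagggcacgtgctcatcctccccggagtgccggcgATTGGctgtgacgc

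**Figure D4:**
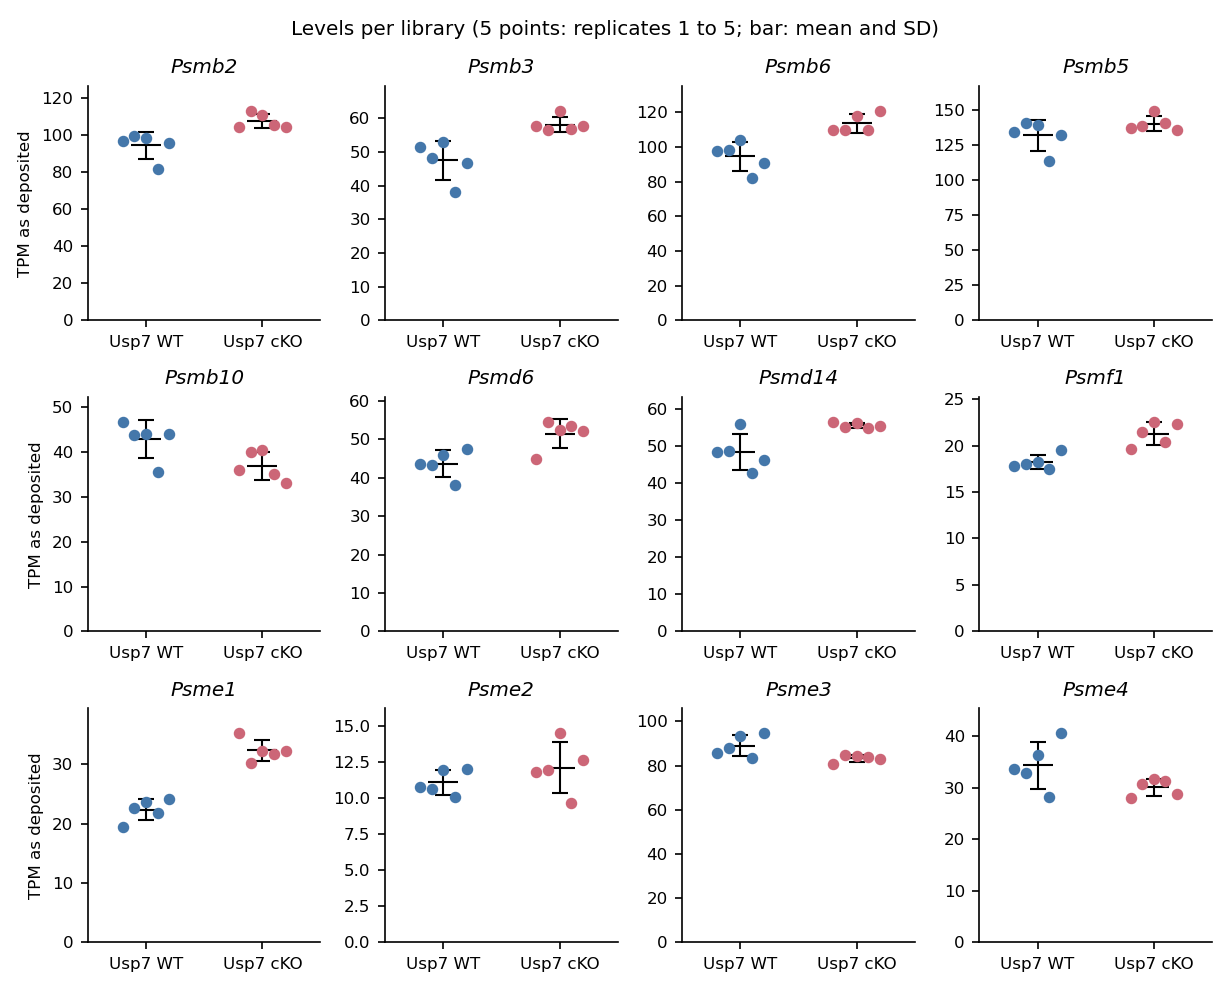
TPM as deposited (y axis, from 0) of 12 genes in each library of Usp7 WT (blue) and Usp7 cKO (red), with the group mean and SD. Psmb2, Psmb3, Psmb6, Psmf1 and Psme1 have no overlap between the groups, and the other 7 genes overlap.

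Psmf1 encodes PI31, a proteasome-binding regulator that in neurons is known as an adaptor for axonal transport of proteasomes. It measured 17.8, 18.0, 18.3, 17.5 and 19.5 TPM in the Usp7 WT libraries and 19.6, 21.4, 22.5, 20.4 and 22.3 TPM in the Usp7 cKO libraries. The groups did not overlap (log2 change 0.22, SE 0.0543, limma adjusted p = 0.0255), and the call was also made on rescaled TPM (log2 0.15, adjusted p = 0.0438), again with no overlap. The rescaled call was lost in 8 of 10 fits with 1 library left out (adjusted p from 0.0301 to 0.105 over the 10). Psmf1 passed under 14 of 22 alternatives, with adjusted p from 0.00514 to 0.0935, 4 of the 10 with 1 library left out among them. Its partner Fbxo7 was not called (19.1 ± 0.874 and 19.8 ± 1.05 TPM, SD, n = 5). The 120 bases before its RefSeq start, shown because it was called on both scales, lie at chr2:151741311-151741430 on the minus strand (GRCm38.p6), overlap no annotated exon and hold none of the 3 motifs.
Psmf1: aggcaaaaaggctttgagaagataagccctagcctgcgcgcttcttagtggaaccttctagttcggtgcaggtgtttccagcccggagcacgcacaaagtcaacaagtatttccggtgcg

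Psmb10, the immune form that replaces the trypsin-like subunit Psmb7, measured 46.6, 43.7, 44.0, 35.5 and 44.0 TPM in the Usp7 WT libraries and 35.9, 39.9, 40.4, 35.2 and 33.1 TPM in the Usp7 cKO libraries. Usp7 WT replicate 4 stood low among its group, and the groups overlapped (log2 change -0.21, SE 0.0755, limma adjusted p = 0.0964). On rescaled TPM the gene was called lower (log2 -0.27, adjusted p = 0.0329), and without Usp7 WT replicate 4 it was called on TPM as deposited too, the 1 of 10 such fits that did. The rescaled call was lost in 7 of 10 fits with 1 library left out (adjusted p from 0.0253 to 0.0796) and without both libraries of discordant sex (adjusted p = 0.134). The ratio of Psmb10 to Psmb7 was 1.29, 1.11, 1.13, 1.21 and 1.19 in the Usp7 WT libraries and 0.880, 0.970, 1.02, 0.825 and 0.837 in the Usp7 cKO libraries, with no overlap. The other immune catalytic genes were barely transcribed, Psmb8 at 0.732 ± 0.232 and 0.675 ± 0.162 TPM and Psmb9 at 0.576 ± 0.191 and 0.587 ± 0.199 TPM (SD, n = 5), neither called. Microglial markers were lower in the same libraries (193.9 to 231 against 132 to 154 TPM), and their part in Psmb10 was not tested.

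The 7 assembly chaperones had 0 calls by limma on either scale. At an unadjusted p below 0.05 there was 1 on each scale, Psmd9. Their median change was 0.10, from -0.05 for Psmd10 to 0.28 for Psmg3, and rescaled 0.04. Psmd9, which helps to assemble the cap base, went from 11.5 ± 1.27 TPM in Usp7 WT to 13.5 ± 1.18 TPM in Usp7 cKO (SD, n = 5) with overlapping groups. It was not called by limma (log2 change 0.23, SE 0.0782, limma adjusted p = 0.0857), and edgeR and DESeq2 on bin counts called it higher. Psmg1 to Psmg4, which pair to build the core rings, overlapped between groups, with changes of 0.10, -0.05, 0.28 and 0.08. Psmc3ip, the gene that is no subunit, went from 3.30 ± 0.547 TPM in Usp7 WT to 4.37 ± 0.669 TPM in Usp7 cKO (SD, n = 5) and was not called (log2 change 0.36, SE 0.133, limma adjusted p = 0.104).

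Exon usage asks whether a part of a gene changed against the rest of it. Of the 45 proteasome genes tested on bin counts (edgeR, Simes p), 1 was called, Psmd5, beside 2.85% of all 13954 genes tested. Psmd5 encodes a chaperone of the cap base that is known to hinder 26S assembly. Its bin at chr2:34849734-34852101 (2368 bases, minus strand, GRCm38) lies in the 3′ untranslated region of the transcript Psmd5-201. The bin's counts were 75, 96, 104, 103 and 61 in the Usp7 WT libraries and 108, 124, 117, 147 and 135 in the Usp7 cKO libraries, without overlap. Its share of the counts of Psmd5 went from 6.44 ± 0.974% to 9.10 ± 0.575% (SD, n = 5; relative log2 0.34, Simes adjusted p = 0.0415). The authors' deposited table gives this bin a log2 fold change of 0.48 and an adjusted p of 0.000263. The call was lost without the covariate, without both libraries of discordant sex and in 8 of 10 fits with 1 library left out.

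Psmd13 came next and missed the threshold (Simes adjusted p = 0.0807), and it is named after its values were seen. Its bin at chr7:140897913-140898192, in the untranslated region of Psmd13-204, took 0.715 ± 0.117% of the gene's counts in Usp7 WT against 1.14 ± 0.402% in Usp7 cKO. Counts were high in Usp7 cKO replicates 2, 3 and 5 (73, 65 and 64 counts), while replicates 1 and 4 (28 and 33) lay within the 26 to 37 counts of Usp7 WT. The adjoining bin at chr7:140897841-140897912 had the smallest p of the gene. Its share went from 0.207 ± 0.0788% to 0.459 ± 0.195%, at a mean of 15.1 counts. The authors' deposited adjusted p for exon usage was 0.188 for this adjoining bin and 0.430 for the other. The intron table held 40 introns of 13 proteasome genes in 14 clusters. Of the 13 clusters tested, 0 were called by edgeR and 0 had an unadjusted p below 0.05 (lowest 0.0875, Psmb7), beside 0.22% of 10441 clusters called. No other tool was run on introns.

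Of 39 genes listed as partners and regulators of the proteasome, 38 were measured. With TPM as deposited 1 was higher and 6 lower, with a median change of -0.02, and rescaled 1 was higher and 10 lower with a median of -0.08. The shares over all genes tested were 9.22% higher and 4.67% lower as deposited and 9.6% and 10.9% rescaled. Nfe2l1, which encodes the activator of proteasome genes, measured 182, 187, 201, 178 and 202 TPM in the Usp7 WT libraries and 172, 166, 164, 161 and 158 TPM in the Usp7 cKO libraries. The groups did not overlap (log2 change -0.21, SE 0.0478, limma adjusted p = 0.0163). Rescaled, Ddi2 and Ngly1, which process the NFE2L1 protein, and its partner gene Mafg were called lower too, at -0.19, -0.26 and -0.25. Of the same group of regulators Maff, Nfe2l3 and Mafk had rescaled changes above 0, at 0.40, 0.35 and 0.09, and Nfe2l2 one of -0.11, with none of these called on either scale. In Maff every Usp7 cKO library lay above every Usp7 WT library with TPM as deposited. Uchl5, a deubiquitinase bound to the cap, measured 14.6, 17.9, 17.7, 13.8 and 14.9 TPM in the Usp7 WT libraries and 11.0, 11.4, 12.7, 10.5 and 10.8 TPM in the Usp7 cKO libraries, without overlap (log2 change -0.46, limma adjusted p = 0.00799).

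Ubqln2 and Ubqln4, shuttle factors that carry ubiquitinated proteins to the cap, were called lower with TPM as deposited. Ubqln2 went from 274 ± 8.36 to 246 ± 12.6 TPM and Ubqln4 from 84.9 ± 4.41 to 73.7 ± 3.00 TPM (SD, n = 5), each with no overlap. Their relative Ubqln1 was not called. Ube3c, a ligase on the cap, was lower with TPM as deposited (from 53.6 ± 2.51 to 47.0 ± 1.75 TPM) and missed the threshold rescaled (limma adjusted p = 0.0524). The ubiquitin gene Ubb was not called, at 0.05. The core maturation factor Pomp (0.04), the ubiquitin receptor Adrm1 (0.13) and the cap deubiquitinase Usp14 (-0.06) were not called either.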

How the data were processed

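RNA of mouse cerebral cortex was analysed in 10 libraries, 5 per genotype, each grouped by its genotype label. Per the file headers the authors gave gene levels as TPM, with gene lengths not given in the sources used here. Exon bins and introns are raw counts deposited by the authors, per the file headers. In the bin table the authors deposited their own log2 fold changes and p-values of exon usage. Of aligners and counters, SAMtools 1.10, featureCounts, Subread and STAR 2.7.9a are listed with the build GRCm38 in the submitters' processing notes, without their roles. The counting strand is not given in the sources used here, so reads of overlapping genes on opposite strands cannot be told apart. Lines repeated in the TPM table (287) were counted 1 time, and the intron counts of Usp7 WT replicate 1, all even, were halved.

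In R 4.3.3, limma 3.58.1 (trend, robust variance, labelled sex) was fitted to log2(TPM + 0.5), a scale that understates changes of low genes, where the mean reached 0.5 TPM. For exon and intron usage edgeR 4.0.16 was used (TMM scaling; mean counts of at least 10 per bin and 5 per intron; Simes p). All p-values are two-sided and were adjusted by Benjamini-Hochberg over all features at 0.05. Tables and plots used Python 3.11.15, pandas 2.3.3 and matplotlib 3.10.9. The fits were tested on simulated data. The alternatives were other pseudocounts, filters and scalings, edgeR and DESeq2 1.42.0 on summed bin counts, other covariates, a replicate block and libraries left out.

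The text names every gene called on either scale, and Psmb5, Psmb10, Psmd4, Psmd14, Psme1 to Psme4 and Psmf1 whatever their change. Of the partner genes it names those called with TPM as deposited, and Nfe2l1, Pomp, Adrm1, Usp14 and Ubb, except that some genes this rule names are not reported here. Members and lists were chosen with earlier results of these data known. Separate animals per library are taken from the labels.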

Additional observations from a re-analysis of the deposited data

Results flagged for a closer look

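In 4 of the 34 groups of 5 libraries examined, 1 library stood apart from the other 4 by Dixon's ratio, where chance flags about 1 in 20 groups. Psmb10 was at 35.5 TPM in Usp7 WT replicate 4, against 43.7 to 46.6 TPM in the other Usp7 WT libraries. Psmb2 was at 81.7 TPM in the same library, against 95.6 to 99.4 TPM. Psmb3 was at 62.1 TPM in Usp7 cKO replicate 3, against 56.5 to 57.6 TPM in the other Usp7 cKO libraries. Psmd6 was at 44.8 TPM in Usp7 cKO replicate 1, against 52.1 to 54.5 TPM.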

How the results depend on the processing

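Of the genes named, Psme1 alone was called under all 22 alternatives. The count of 6 genes higher was 3 with no filter on low values, 2 with TPM rescaled by size factors, 13 with TPM rescaled to coding genes, 2 with Xist as covariate and 1 without both libraries of discordant sex, and 2 to 11 with 1 library left out. The count of 0 genes lower was 3 rescaled by size factors, 4 with edgeR, 4 with DESeq2, and 0 to 1 with 1 library left out. Calls over all genes, in either direction, moved too, from 3832 of 27580. They were 3373 of 44015 with no filter, 5648 of 27535 rescaled by size factors and 5599 of 29629 rescaled to coding genes. With Xist as covariate they were 3016 of 27580, and without both discordant libraries 2183 of 27667. Leaving out 1 library gave 2789 to 3586 genes, edgeR 6429 and DESeq2 6599 of 23012. On rescaled TPM, added after seeing the data, leaving out 1 library gave 1 to 3 genes higher, 0 to 3 lower, core medians of 0.05 to 0.14 (0.0458 without Usp7 WT replicate 4, 0.0651 without Usp7 WT replicate 5) and cap medians of -0.02 to 0.03 (-0.0238 without Usp7 WT replicate 4, -0.0109 without Usp7 cKO replicate 2 and -0.0134 without Usp7 cKO replicate 4), and leaving out both discordant libraries gave 2 higher and 0 lower. Over all genes these rescaled fits called 4353 to 4968 with 1 library left out, in either direction. Without both discordant libraries they called 3624 of 27574. The change of Psme2 was -0.00338 with DESeq2, and that of Psmb5 reached -0.00793 and -0.0126 on rescaled TPM without Usp7 WT replicate 4 or 5. The 1 gene called on exon usage was 0 with no covariate, 0 without both discordant libraries and 0 to 1 with 1 library left out. With a replicate block of labelled sex and the number in the library titles, the counts were 6 higher and 0 lower. The deviations of libraries in the same block correlated at -0.0160 to 0.0924. Of these, only the value for Usp7 WT replicate 1 with Usp7 cKO replicate 5 was below 0. Those of libraries in different blocks correlated at -0.0934 to 0.0825, with values on both sides of 0. Whether these blocks are the litter-matched pairs is not given, so the effect of litter was not tested. The causes of these shifts were not tested, other than that leaving out libraries leaves fewer samples. TPM keeps no depth, so counting error per gene is known from the bin counts alone.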

Other observations

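Psme1 lies in a gene-dense stretch of chromosome 14 (GRCm38). Of its neighbours there, Pck2 was higher in Usp7 cKO (7.97 to 11.7 TPM, limma log2 change 0.53, adjusted p = 0.00195) and so was Rec8 (2.32 to 5.14 TPM, log2 change 1.02, adjusted p = 0.00129). Irf9, which encodes a factor of interferon signalling, was at 6.02 and 4.13 TPM, not called with TPM as deposited (adjusted p = 0.0749) and called lower rescaled (log2 -0.57, adjusted p = 0.0185). Dcaf11, Emc9, Psme2, Rnf31, Ipo4 and Tm9sf1 were not called on either scale. These neighbours were looked at after the change of Psme1 was known.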
